A study of Mus musculus with 2 samples.

Results

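Tandem repeats built from a unit of 5 or 6 bases were described in a chromatin immunoprecipitation sequencing (ChIP-seq) study that used an antibody to H3.3S31ph, the serine 31 phosphorylated form of histone H3.3, in mitotic mouse embryonic stem (ES) cells. The members are the repeat types listed as a bracketed unit followed by n whose unit has 5 or 6 bases and at least 1 G or C. Units with 3 neighbouring positions that are each G or C, read in tandem, were left out, as were units 1 base away from the telomere hexamer in any rotation or on either strand. By this rule 66 of the 952 repeat types in the tables were members, 61 with a 5-base and 5 with a 6-base unit. All 66 differ from each other in every rotation and on both strands.

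The study has 1 ChIP sample and 1 input sample, both from wild-type ES cells of the strain 129S1/SvImJ at fewer than 20 passages, grown in serum with leukemia inhibitory factor. The CDK1 inhibitor RO-3306 (9 µM, 12 hours) was used to synchronise both, and mitotic cells were taken 11 hours after its removal. Fixation was in 0.4% formaldehyde (10 min), chromatin was sheared to about 300 bp, and the input was sequenced without immunoprecipitation. No other antibody and no interphase sample was analysed here, and the tables hold no expression values against which the cell type could be checked.

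The variant histone H3.3 can be deposited without DNA replication, and its serine 31 is not found in the canonical H3 histones. Its phosphorylation is known as a mark of mitosis, and in mouse ES cells H3.3 is known to be placed at telomeres and other repetitive DNA by the chaperone complex of ATRX and DAXX. Short tandem repeats, or microsatellites, are arrays of a unit of a few bases; they lie scattered over the chromosomes, often in introns and between genes. A CpG is a C followed by a G on the same strand, the site of most DNA methylation in mammals.

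The rows are repeat types that sum reads over all copies in the genome, so they have no single position and no coordinates are given. Each sequence is shown as 3 units in tandem, 5′ to 3′, with G and C in capitals, as the unit is named in the deposited tables. The first set holds units of 5 bases with 3 G or C that share their base composition in pairs but not its order, because they hold the 3 highest values among members with at least 100 input reads.
Repeat (CACAG)n: CaCaGCaCaGCaCaG
Repeat (CAGAC)n: CaGaCCaGaCCaGaC
Repeat (CACTG)n: CaCtGCaCtGCaCtG
Repeat (CAGCT)n: CaGCtCaGCtCaGCt
Repeat (CAGAG)n: CaGaGCaGaGCaGaG
Repeat (CAGGA)n: CaGGaCaGGaCaGGa

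The second set holds 4 abundant units, which weigh much in the sums.
Repeat (CATATA)n: CatataCatataCatata
Repeat (CAGAGA)n: CaGaGaCaGaGaCaGaGa
Repeat (GAAAA)n: GaaaaGaaaaGaaaa
Repeat (CAAAC)n: CaaaCCaaaCCaaaC

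The third set holds the 7 members with a CpG, ordered by their input reads.
Repeat (CGAAA)n: CGaaaCGaaaCGaaa
Repeat (CGAGA)n: CGaGaCGaGaCGaGa
Repeat (CGATA)n: CGataCGataCGata
Repeat (CACGT)n: CaCGtCaCGtCaCGt
Repeat (CACGA)n: CaCGaCaCGaCaCGa
Repeat (CGAAT)n: CGaatCGaatCGaat
Repeat (CGAGT)n: CGaGtCGaGtCGaGt

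The tables of both sequencing lanes together held 12235477 ChIP and 8856751 input reads, and the members made up 0.322% of the ChIP and 0.365% of the input reads. The ratio used throughout divides the percentage of all ChIP table reads that fall in a row by the same percentage for the input. Every interval is a 95% exact conditional (Clopper-Pearson) interval that covers counting error only. With 1 sample in each group there is no replicate check and no test between conditions. The median of the 704 rows with at least 100 input reads was 0.805, so a typical row lay below the input level of 1, and values are also read against that median. Other scales multiplied every ratio by 1.12 to 1.24 and left ratios between classes as they were.

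The members together lay below the input level on this scale, though at 1.10 with the median row set to 1 and 1.02 without the 5 most abundant rows, and 1 of the abundant members stood far above the others. Their pooled reads, 39420 in the ChIP and 32340 in the input, gave a ratio of 0.882 (0.869 to 0.895), and without (CACAG)n the ratio was 0.817 (0.805 to 0.830). Of the 66 members, 25 had at least 100 input reads and 41 had fewer, among them (CGAGT)n, which had 0 reads in either library. The ratios of the 25 ran from 0.617 to 2.39 with a median of 0.863, against 0.805 over all 704 rows. The 6 most abundant members held 75.4% of the members' input reads.

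Few of these members lay above input, as was so for all 704 rows, and a smaller share of them than of all rows lay below it. Of the 25, 3 had an interval above 1 (7.81% of all 704 rows had one), 14 had one below 1 (79.5% of all rows) and 8 included 1. Against the median row, 6 lay above it (27.3% of all rows) and 2 below it (19.2% of all rows). A ratio of at most 0.8 was found for 9 of the 25 (47.4% of all rows). Many members have few reads and wide intervals, and a wide interval is less often on 1 side. Of the 40 members under 100 input reads that had any read, 36 had an interval that included 1, 0 lay above it and 4 below it. The shares over all repeat types under 100 input reads are not given here. These counts are therefore not read as particular to the members.

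Units with more G and C had higher ratios. Members with 1 G or C, 18 rows, had a pooled ratio of 0.778 (0.763 to 0.794). Those with 2 G or C, 29 rows, had 0.836 (0.804 to 0.870), and those with 3 G or C, 19 rows, had 1.14 (1.11 to 1.17). The ratio of the last class to the first was 1.47 (1.42 to 1.52). Much of that came from (CACAG)n, and without it the pooled ratio of the class with 3 G or C was 0.909 (0.882 to 0.938), below the input level rather than above it, although still above the median row. The ratio of the classes was then 1.17 (1.13 to 1.21), so the order of the classes stayed the same.

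The order held less clearly for the lower classes. Members with 2 G or C were 1.07 (1.03 to 1.12) times those with 1, and among 5-base units alone the figure was 1.03 (0.984 to 1.08), an interval that includes 1. Among 5-base units, those with 3 G or C other than (CACAG)n were 1.24 (1.15 to 1.34) times those with 2. Among 6-base units, those with 3 G or C were 1.18 (1.13 to 1.24) times those with 1. That figure sets 3 rows against 2, and (CAGAGA)n and (CATATA)n held most of the input reads of these pools. Without (CAGAGA)n the pooled ratio of the 6-base units with 3 G or C was 0.807 (0.743 to 0.876). The 41 small rows gave the same order when pooled, with 0.794 (0.700 to 0.901) for 1 G or C, 0.860 (0.770 to 0.961) for 2 and 1.21 (0.975 to 1.50) for 3. In these small rows the class with 3 G or C was 1.52 (1.18 to 1.96) times that with 1, at 1.66 (1.17 to 2.36) in lane 1 and 1.38 (0.949 to 2.01) in lane 2. The class with 2 G or C was 1.08 (0.915 to 1.28) times that with 1, an interval that includes 1. Across the 25 members with at least 100 input reads, Spearman's rho between GC share and ratio was 0.805, and it was 0.786 over 24 without (CACAG)n. This is a description across rows that come from the same 2 libraries and partly share sequence, since each of the 66 units is 1 base away from at least 1 other.

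**Figure D1:**
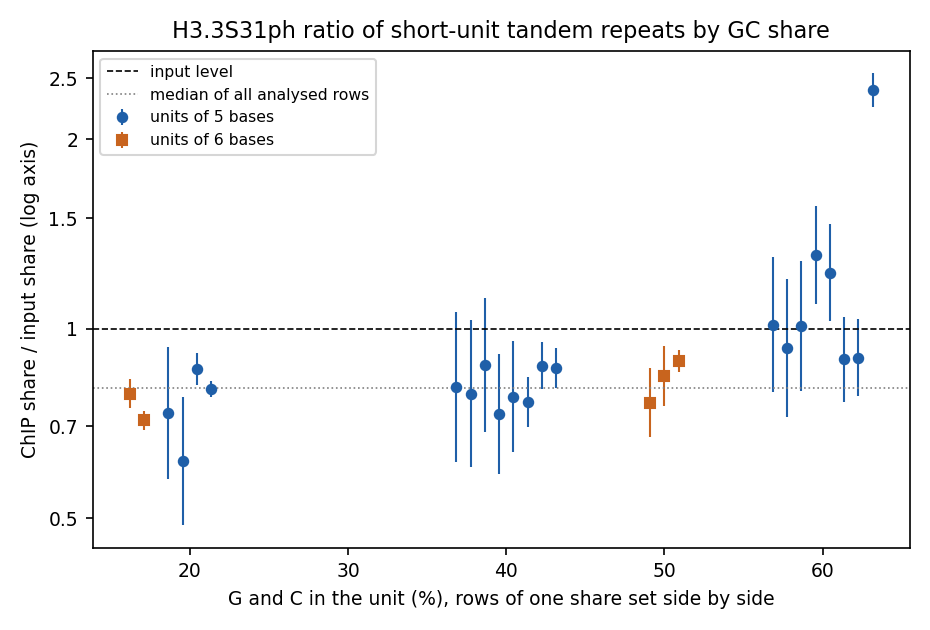
Ratio of ChIP share to input share (log axis) against the percentage of G and C in the unit for the 25 members with at least 100 input reads, with 95% counting intervals; circles are 5-base and squares 6-base units, the dashed line is the input level and the dotted line the median row. On this scale all 6 members with 1 G or C lie below 1, and (CACAG)n at 2.39 lies far above the other 24, which reach 1.31.

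Members with 1 G or C were the lowest and held most of the reads. The abundant 6-base unit (CATATA)n had 3036 and 3039 reads in lane 1 and 2842 and 2906 in lane 2. Its ratio of 0.716 (0.690 to 0.742) was 0.889 times the median row, and its interval lay below that row. The 5-base (CATAT)n, with 138 ChIP and 162 input reads, was the lowest of the 25 at 0.617 (0.488 to 0.779). These were the 2 members with an interval below the median row among the 25 with at least 100 input reads.

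Other members with 1 G or C lay close to the typical repeat. (CTATA)n, with 141 ChIP and 139 input reads, had 0.734 (0.577 to 0.935). (GAAAA)n, the all-purine unit of this class, had 2531 and 2124 reads and a ratio of 0.863 (0.814 to 0.914). It was 1.08 (1.01 to 1.15) times the other 5-base units with 1 G or C, at 1.06 (0.971 to 1.17) in lane 1. The same comparison of all-purine with other 5-base units gave 0.972 (0.896 to 1.05) at 2 G or C. At 3 G or C, with (CACAG)n set aside, it gave 0.831 (0.709 to 0.976), with (GGAGA)n as the single all-purine row. The figure was 0.898 (0.719 to 1.12) in lane 1, an interval that includes 1, and 0.762 (0.604 to 0.963) in lane 2. Of the members with 1 G or C and at least 100 input reads, (GAAAA)n was the one with an interval above the median row. Among the 12 rows with 1 G or C under 100 input reads, (CTAAT)n had the highest ratio of those with at least 20, 1.24 (0.730 to 2.14). (CAATT)n had the lowest, 0.428 (0.198 to 0.887).

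Members with 2 G or C formed a tight group. The 8 with at least 100 input reads had ratios from 0.732 to 0.876, and all 8 intervals included the pooled ratio of the class. The highest were (CAGAA)n at 0.876 (0.686 to 1.12) over 124 input reads, (GGAAA)n at 0.875 (0.804 to 0.952) over 998 and (CAAAC)n at 0.868 (0.807 to 0.933) over 1375. (CAAAC)n lay above the median row, with 832 ChIP and 702 input reads in lane 1 and 816 and 673 in lane 2. The lowest were (CAGTA)n at 0.732 (0.588 to 0.912), (GAGAA)n at 0.765 (0.698 to 0.839) and (CAAAG)n at 0.781 (0.638 to 0.956). (CACTA)n and (CACAT)n, at 0.790 and 0.807, had intervals that included 1. Of the 21 smaller rows, (CATAC)n at 1.07 (0.786 to 1.45) and (CAAGA)n at 1.06 (0.749 to 1.50) were the highest with at least 20 input reads, and (CCTAT)n was the lowest at 0.462 (0.262 to 0.802).

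Members with 3 G or C spread most. (CACAG)n had 2211 ChIP and 658 input reads in lane 1 and 2204 and 677 in lane 2. Its ratio of 2.39 (2.25 to 2.55) was 2.97 times the median row, and 5 of the 704 rows, itself included, had a ratio as high. It held 15.6% of the input reads of its class and 32.8% of the ChIP reads. Among rows with at least 100 input reads, the next highest were (CACTG)n at 1.31 (1.09 to 1.57), with 180 ChIP and 100 input reads in lane 1 and 169 and 93 in lane 2, and (CAGAG)n at 1.23 (1.03 to 1.47), with 167 and 114 in lane 1 and 177 and 89 in lane 2. These 3 were the members with an interval above 1, and in lane 1 alone (CAGAG)n was not among them, with 1.05 (0.826 to 1.35) against 1.45 (1.12 to 1.89) in lane 2.

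The other 5-base units of the class lay near the input level. (CAGGA)n had 1.02 (0.794 to 1.30), (CAGCT)n 1.01 (0.797 to 1.28), (CACCT)n 0.932 (0.725 to 1.20), (GGAGA)n 0.900 (0.782 to 1.04) and (CACAC)n 0.895 (0.766 to 1.04), and all 5 intervals included 1. Without (CACAG)n the 5-base units with 3 G or C had a pooled ratio of 1.04 (0.974 to 1.11). The 6-base units with the same number of G and C, a GC share of 50% rather than 60%, had 0.874 (0.843 to 0.905). Among them the abundant (CAGAGA)n had 2795 ChIP and 2354 input reads in lane 1 and 2799 and 2197 in lane 2, a ratio of 0.890 (0.855 to 0.925). (CACCAT)n had 0.841 (0.754 to 0.938) and (GGAGAA)n 0.764 (0.674 to 0.866). Of the 8 rows of this class under 100 input reads, the one with most, (CACTC)n, had 123 ChIP and 69 input reads and a ratio of 1.29 (0.953 to 1.76).

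**Figure D2:**
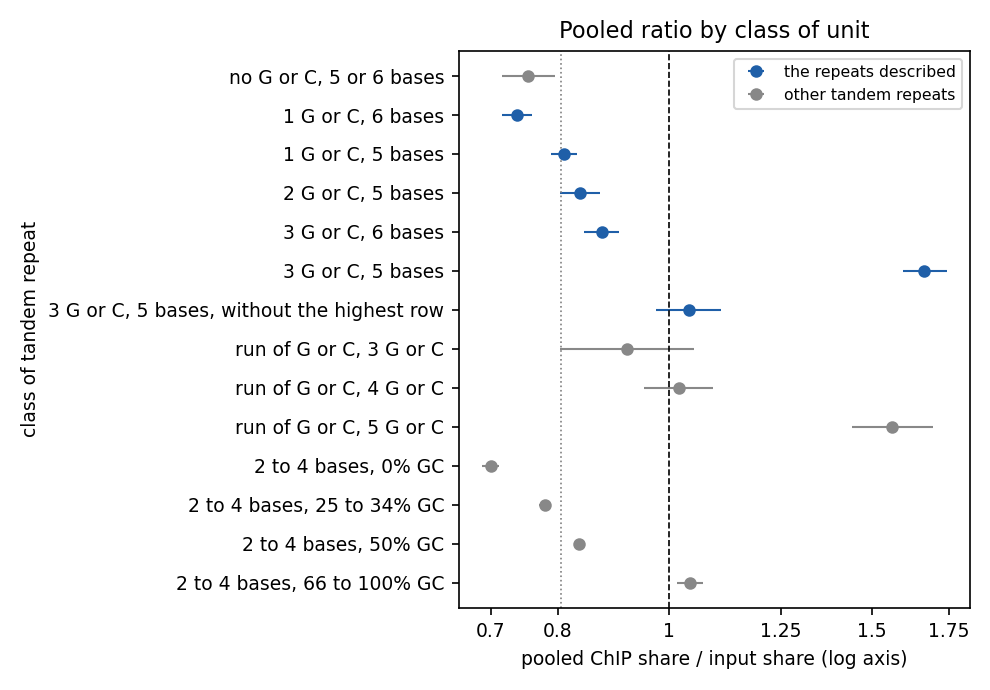
Pooled ratio of ChIP share to input share (log axis) with 95% counting intervals, for classes of the described repeats (blue) and of other tandem repeats (grey), the dashed line being the input level and the dotted line the median row. The 5-base units with 3 G or C drop from 1.67 to 1.04 without their highest row, and the units of 2 to 4 bases rise from 0.700 to 1.04 with GC share.

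The high value of (CACAG)n was not shared by its relatives in sequence, a comparison chosen after its value was seen. (CAGAC)n has the same base composition in another order, and its 57 ChIP and 40 input reads gave a ratio of 1.03 (0.677 to 1.59). (CACAG)n was 2.32 (1.50 to 3.56) times that row, at 2.99 (1.64 to 5.42) in lane 1 and 1.74 (0.878 to 3.31) in lane 2, where the interval included 1. Of the 19 tandem repeat types whose unit, or (CA)n read as 4 bases, is 1 base away from CACAG, 15 had at least 100 input reads. Their ratios ran from 0.732 to 1.31, and 2 of the 15, (CACTG)n and (CAGAG)n, had an interval above 1. (CA)n, with 84313 input reads, had 0.835 (0.828 to 0.843), (CAGA)n had 0.846 (0.811 to 0.884) and (CACAC)n had 0.895. The 3-base unit (CAG)n had 1.05 (0.982 to 1.13), and (CACAG)n was 2.27 (2.07 to 2.50) times it. Which genomic copies supply the reads of (CACAG)n cannot be read from the tables.

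Members of equal base composition and different order had ratios that could not be told apart at this depth in most cases. The 66 members hold 13 groups of 2 or more rows with 1 composition, counting a unit and its complement as 1. In each group the highest row with at least 20 input reads was divided by the lowest, and in 10 of the 13 groups the interval of that ratio included 1. Both rows were picked by their values, so these intervals are too narrow. The 3 exceptions were the group that holds (CACAG)n, given above, and the next 2 pairs. (CTAAT)n, with 41 ChIP and 24 input reads, was 2.89 (1.14 to 7.43) times (CAATT)n, which had 13 and 22. The all-purine unit (GGAAA)n was 1.14 (1.01 to 1.30) times (GAGAA)n, which has the same 2 G and 3 A with the G bases apart, and in each lane alone both of these intervals included 1. Of the other pairs, (CACTG)n was 1.30 (0.959 to 1.75) times (CAGCT)n, with 1.07 in lane 1 and 1.52 in lane 2. (CAGAG)n was 1.21 (0.887 to 1.64) times (CAGGA)n. For the AT-rich units, (CTATA)n was 1.19 (0.848 to 1.67) times (CATAT)n.

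Within the 5-base units with 3 G or C, units that hold both G and C on the named strand had a higher pooled ratio than units that hold G alone or C alone, also without (CACAG)n. The 11 rows with both bases had a pooled ratio of 1.17 and the 4 rows with G alone or C alone had 0.934, a ratio of 1.249 (1.09 to 1.43), at 1.11 in lane 1 and 1.42 in lane 2. The 7 rows with CAG or CTG were 1.23 (1.07 to 1.40) times the 8 without. The 3 rows in which a G is followed by a C when the unit is read in tandem, which include the next highest rows (CACTG)n and (CAGAG)n together with the row (CAGCT)n, were 1.26 (1.10 to 1.45) times the 12 others, a feature chosen after the values were seen. These 3 features mark overlapping sets of rows and are not separate results. In lane 1 alone they gave, in this order, 1.11 (0.923 to 1.34), 1.08 (0.896 to 1.30) and 1.17 (0.966 to 1.42), so each interval included 1. In lane 2 they gave 1.42 (1.17 to 1.72), 1.41 (1.16 to 1.71) and 1.36 (1.12 to 1.66). Among 5-base units with 2 G or C, the same features gave 0.971 (0.873 to 1.08), 0.928 (0.797 to 1.08) and 0.901 (0.753 to 1.08), so none of them separated rows there. Whether the features differ in effect between the 2 classes was not tested.

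With (CACAG)n kept in, the pooled ratios of the members did not rise or fall steadily with edits from the telomere hexamer. The 16 rows that are 2 edits away from it had a pooled ratio of 0.861 (0.817 to 0.908), the 47 rows at 3 edits 0.886 (0.872 to 0.900) and the 3 rows at 4 edits 0.861 (0.813 to 0.912). (CACAG)n is at 3 edits, raises that pool and was not set aside in it, and (GAAAA)n held 97.7% of the input reads at 4 edits. Whether the pools would be ordered without (CACAG)n was not tested. The median of rows with at least 100 input reads was 0.854 over 4 rows at 2 edits and 0.840 over 20 rows at 3 edits. The 7 rows at 1 edit, which the rule leaves out, had 0.860 (0.729 to 1.01) over 272 input reads, against 14.4 for the hexamer itself. Of these 7, (TAGGG)n was the highest, with 76 ChIP and 27 input reads and a ratio of 2.04 (1.30 to 3.29), and was named after its value was seen. Its interval lay above 1 in lane 1, at 1.84 (1.01 to 3.52), and in lane 2, at 2.32 (1.15 to 5.06).

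CpG could hardly be assessed among the members, because their 7 CpG units had 71 input and 108 ChIP reads in all. (CGAAA)n held 87.3% of these input reads. It had 46 ChIP and 33 input reads in lane 1 and 41 and 29 in lane 2, and its ratio of 1.02 (0.725 to 1.43) included both the input level and the median row. The 3 CpG rows with 2 G or C had a pooled ratio of 0.991 (0.712 to 1.39), against 0.834 (0.801 to 0.868) for the 26 rows of the same length and class without CpG. The ratio of the 2 was 1.19 (0.851 to 1.67).

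The CpG rows with 3 G or C were fewer still. They had 19 ChIP and 6 input reads and a pooled ratio of 2.29 (0.880 to 7.01), of which (CGAGA)n supplied 14 ChIP and 3 input reads. Against the 12 rows without CpG, whose pooled ratio was 1.66, the ratio was 1.38 (0.528 to 4.22), at 1.86 in lane 1 and 0.880 in lane 2, so the lanes lay on different sides of 1. Without (CACAG)n it was 2.21 (0.848 to 6.79). A difference by CpG of less than several-fold was thus not detectable in this class at this depth. (CGATA)n and (CACGT)n had 2 reads in each library, (CACGA)n had 3 and 1, and (CGAAT)n had 0 ChIP reads and 1 input read.

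**Figure D3:**
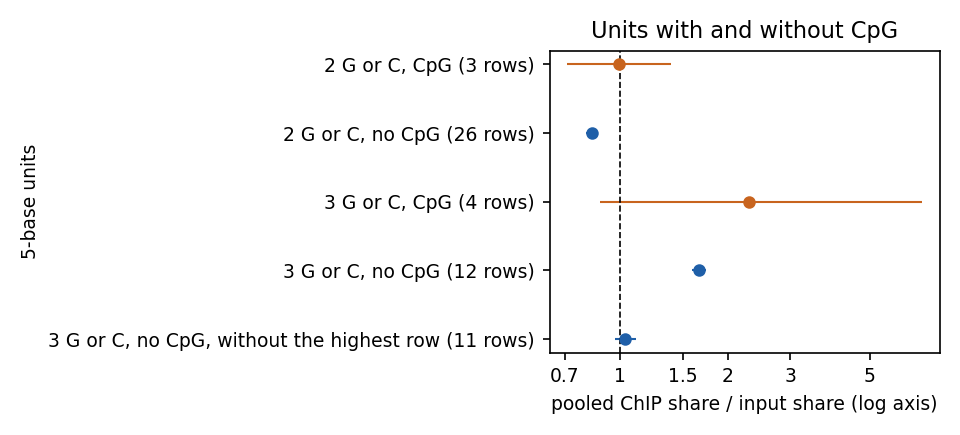
Pooled ratio of ChIP share to input share (log axis) with 95% counting intervals for 5-base units with CpG (orange) and without (blue), at 2 and at 3 G or C per unit, the dashed line being the input level. The CpG interval runs from 0.712 to 1.39 at 2 G or C and from 0.880 to 7.01 at 3, and both cover the value of the rows without CpG.

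A narrower reading of the rule bars only GGG or CCC and admits 20 further rows, 15 of them with CpG and all under 100 input reads. The pooled ratio of the then 86 rows was 0.885 (0.873 to 0.898). At 3 G or C, 5-base CpG rows were 0.860 (0.481 to 1.59), at 1.14 in lane 1 and 0.655 in lane 2, times those without CpG. With (CACAG)n set aside the figure was 1.35 (0.752 to 2.49), at 1.75 in lane 1 and 1.04 in lane 2. At 4 G or C, 7 CpG rows were 1.77 (1.05 to 2.98) times the 1 row without, (CAGGC)n. This rested on (CGAGG)n, with 77 ChIP and 21 input reads, and without it the ratio was 1.10 (0.572 to 2.12).

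Other tandem repeats of a near GC share were compared with the members with (CACAG)n set aside. Most of the differences given here as a multiple lay within counting error. Members with 1 G or C were 0.998 (0.975 to 1.02) times the units of 2 to 4 bases with 25 to 34% GC. The 5-base members with 2 G or C, a share of 40%, were 1.00 (0.961 to 1.04) times the units of 2 to 4 bases with 50% GC. Their share lies between 2 classes of shorter units. Their pooled ratio of 0.836 (0.804 to 0.870) lay above the 0.780 (0.771 to 0.789) of the class with 25 to 34% GC. The 6-base members with 3 G or C were 1.05 (1.01 to 1.08) times the units of 2 to 4 bases with 50% GC, which is also their share. The figure was 1.00 in lane 1 and 1.09 in lane 2. The 5-base members with 3 G or C other than (CACAG)n were 0.998 (0.930 to 1.07) times the units of 2 to 4 bases with 66 to 100% GC. Against units of 5 or 6 bases without G or C, which had 0.755 (0.716 to 0.796), members with 1 G or C were 1.03 (0.974 to 1.09) times as high. Against units with a run of GGG or CCC and 3 G or C in all, which are 2 rows, the 5-base members with 3 G or C other than (CACAG)n were 1.13 (0.974 to 1.31) times as high. The lanes lay on different sides of 1, at 0.965 (0.777 to 1.20) in lane 1 and 1.32 (1.07 to 1.63) in lane 2. Of the comparisons given as a multiple, all intervals over both lanes together included 1 except that of the 6-base members with 3 G or C. GC share moved with the ratio in the members and in the shorter units alike, and the part of amplification or alignment in that was not tested.

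The lanes, which are runs of the same libraries and not replicates, gave close values. For all 25 members with at least 100 input reads the intervals of the lanes overlapped. Their ratios differed by a median factor of 1.08 and at most 1.41, for (CAGTA)n with 0.618 and 0.872. Both lanes lay above 1 for 3 members and below 1 for 20, and for 2, (CAGCT)n and (CAGGA)n, they lay on different sides. The same shares over all rows are not given here. (CACAG)n had 2.42 in lane 1 and 2.37 in lane 2. The pooled ratio was 0.779 and 0.777 in lanes 1 and 2 for 1 G or C, 0.814 and 0.859 for 2, and 1.12 and 1.17 for 3.

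**Figure D4:**
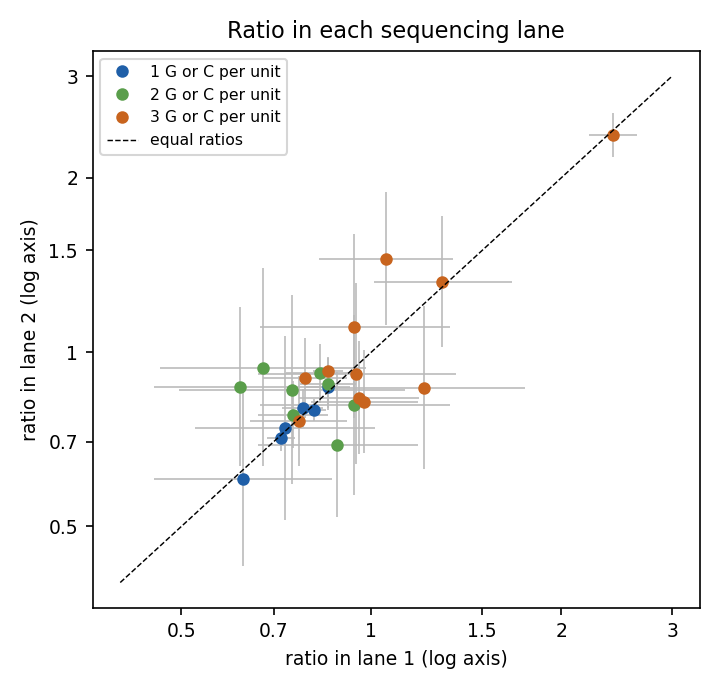
Ratio of ChIP share to input share in lane 1 against lane 2 (both axes log) for the 25 members with at least 100 input reads, coloured by the number of G or C in the unit, with grey 95% counting intervals and a dashed line of equal ratios. (CACAG)n lies at 2.42 and 2.37, apart from the others, and every interval in 1 lane overlaps that in the other.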

How the data were processed

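Each table deposited by the authors covers 1 sequencing lane and lists, per repeat type, the ChIP and input reads as raw counts and, per the file headers, a log2 ratio with bounds. Bowtie 1.0.0 and build mm9 are named in the submitters' processing notes. The counting rules, including the handling of ambiguous reads and of duplicates, are not given in the sources used. Libraries were made from 20 ng with 10 amplification cycles and read as single 50 bp reads, per the labels' protocols, with no molecular identifiers, so intervals cover counting error only.

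Lanes were summed (6204712 and 6030765 ChIP reads, 4467116 and 4389635 input reads). Ratios of shares of the table totals, exact intervals and, between classes, exact conditional odds ratios were computed with Python 3.11.15, pandas 2.3.3 and SciPy 1.17.1, and the computation was tested on simulated data. Rows under 100 input reads entered the sums and counts, and single small rows are named only where said. Values of single rows are given for members with at least 100 input reads, in full for the 6 highest, 6 lowest and 6 most abundant, and for CpG members with at least 20; smaller rows named otherwise were chosen after their values were seen. As an exception, the values and sequences of 2 abundant members with 1 G or C are not reported here singly. The members, classes and alternatives were chosen with earlier results of these data known. The deposited log2 ratios served only to recover the deposited scale. Alternatives were each lane, other scales, other read minimums, 1 added read, the narrower rule and pools without single rows.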

Additional observations from a re-analysis of the deposited data

How the results depend on the processing

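The scale between the libraries multiplies every ratio by 1 factor, which was 1.24 with the median row set to 1, 1.15 without the 5 most abundant rows and 1.12 on the deposited scale, so it leaves ratios between classes unchanged. For all members and for 1, 2 and 3 G or C, the pooled ratios became 1.10, 0.967, 1.04 and 1.42 with the median row set to 1, 1.02, 0.896, 0.962 and 1.31 without the 5 most abundant rows, and 0.992, 0.875, 0.940 and 1.28 on the deposited scale. The direction against input of all members together, and of 2 G or C, thus depended on the scale. The median ratio became 1.07, 0.993 and 0.969. With the median row set to 1, 6 members lay above 1 (27.3% of all 704 rows) and 2 below (19.2% of all rows), and 6 lay below 1 under either other scale. For counts on those other scales, at 1000 input reads and in single lanes, the share of all rows is not given here. Of the members whose interval lay below 1, those whose ratio rose past 1 with the median row set to 1 were (CAAAC)n at 1.08, (CACCAT)n at 1.04, (CAGAGA)n at 1.11, (GAAAA)n at 1.07 and (GGAAA)n at 1.09, and without the 5 most abundant rows (CAGAGA)n at 1.02 and (GGAAA)n at 1.01. Of the members below 1 whose interval had included 1, 5 and 4 also passed 1 on these scales. Without the most abundant row of each pool the ratios were 0.907 for all members, 0.762 for 1 G or C and 1.43 for 3. Without (CACAG)n, chosen after seeing the data, they were 0.817 for all and 0.909 for 3 G or C, and 3 over 1 G or C was 1.17. With at least 1000 input reads 1 member lay above 1, 6 below 1 and 1 below the median row, and each lane alone put 1 below the median row, where fewer rows or reads were used. The CpG ratio at 3 G or C was 1.86 in lane 1, 0.880 in lane 2 and 0.860 under the narrower rule, against 1.38, so its direction differed between these settings. With (CACAG)n set aside this CpG ratio was 2.21 (0.848 to 6.79) under the main rule and 1.35 (0.752 to 2.49) under the narrower rule. Both values lay above 1 with intervals that included 1. In lane 1 alone 2 members lay above 1, without (CAGAG)n. No paired analysis was possible because each group has 1 sample. The CpG units had 71 input reads, which limits that comparison.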
